A study of Mus musculus with 18 samples.

Results

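The leukocyte integrins are described here through 10 genes picked by name, namely the α chains Itgam, Itgax, Itgal, Itgad, Itga4, Itga5 and Itgav and the β chains Itgb2, Itgb3 and Itgb7. They are 10 of the 21734 protein-coding entries whose reads were counted, and all 10 were among the 11357 genes with enough reads to be tested. The name Itgam stands on 2 entries, and the one with the gene ID of Itgam (ENSMUSG00000030786) was used; the other (ENSMUSG00000108596, Gm49368) is an overlapping gene and is given apart.

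RNA was measured in macrophages cultured from bone marrow (BMDMs), taken from mice aged 6 to 7 months of mixed 129/B6 strain and grown for 8 to 9 days in M-CSF at 10 ng/ml. The mice were wild-type (WT), lacked the miR-146a precursor (knockout, KO), or carried 3'F, an allele with a swap in the 3′ part of the miR-146a precursor duplex that leaves the seed in place. Cultures of each genotype were kept resting in fresh medium or given LPS, a bacterial cell wall component, at 1 ng/ml and harvested after 16 h, with 3 libraries in each of the 6 groups, from 3 mice per genotype. KO and 3'F are separate lines made in V6.5 embryonic stem cells, and WT mice came from both lines, so the effect of an allele and of other DNA carried in its line cannot be told apart. Total counts ran from 4071084 to 19818043 a library. Resting KO replicate 3 and resting 3'F replicate 3, the shallowest library, stood apart from their own group: a chi-square per degree of freedom of 100 and 109 separated the former from the other two, and 57.8 and 63.1 the latter, against 6.95 to 48.8 for all other replicate pairs. Calls of the integrins that rest on them are given with and without them. The percentages over all genes, the gene lists, the neighbouring genes on chromosome 7 and the ranking by pattern use all libraries. Because the table holds protein-coding genes, miR-146a itself, which would check the genotypes, was not analysed here.

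Integrins are receptors made of an α and a β chain that tie a cell to its surroundings and to other cells, and they switch between a bent, inactive and an extended, active form. Itgb2 encodes β2 (CD18), which pairs with αL (Itgal, together LFA-1), αM (Itgam, Mac-1 or complement receptor 3), αX (Itgax, CD11c) and αD (Itgad), and serves leukocyte adhesion to ICAMs and uptake of complement-coated particles. Itga4 and Itgb7 encode chains of the receptors for VCAM-1 and MAdCAM-1, Itga5 the α chain of the fibronectin receptor, and Itgav and Itgb3 the vitronectin receptor, which macrophages and osteoclasts use.

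The annotation of the mouse genome build mm10 (Gencode M21) places Itgal, Itgam, Itgax and Itgad on the forward strand of chromosome 7, at chr7:127296260-127335138, chr7:128062640-128118491, chr7:128129547-128150657 and chr7:128154376-128223816. Itgam and Itgax lie 11056 bases apart and Itgax and Itgad 3719, while 727502 bases separate Itgal from Itgam. Itgb2 lies at chr10:77530252-77565708, Itga4 at chr2:79255426-79333123 and Itgav at chr2:83724397-83806916 on the forward strand, Itgb3 at chr11:104608000-104670476 on the forward strand, and Itga5 and Itgb7 at chr15:103344286-103366763 and chr15:102215995-102231944 on the reverse strand. Itgax and Itgad transcripts share 384 words of 50 bases, 8.02% of those of Itgax and 8.43% of those of Itgad, whereas neither shares any with Itgam or Itgal. Itgam overlaps Gm49368, and the exon length deposited for it, 1186 bases of 5024 exon bases, equals its last stretch that Gm49368 does not share (chr7:128117306-128118491), of which 1116 bases are 3′ UTR and 69 are coding in 1 of its transcripts. Levels of Itgam per kb therefore depend on that length.

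The genotypes were made to differ in this microRNA, so its sequence and its seed matches in the integrins are shown here. Matches were searched on the transcript strand: a 7mer is agttctc, complementary to bases 2 to 8 of the microRNA, or gttctca, an 8mer is agttctca, and a 6mer is gttctc alone, counted where no longer match covers it. Of the 10 integrins, 2 held a 7mer or 8mer match in the longest annotated 3′ UTR, Itgad and Itga4, whereas 20.7% of all tested genes with a 3′ UTR (2326 of 11261) did. Itga5 held 1 and Itgb3 held 3 6mers outside such matches, Itga4 another 2, and Itgam, Itgax, Itgal, Itgb2, Itgav and Itgb7 held none of the 3 kinds. Mature miR-146a-5p is from RefSeq (GRCm38.p6, chr11:43374435-43374456, reverse strand) with the seed in capitals; the sites are from the Gencode M21 transcripts, at base 78 of the 3′ UTR of Itgad and base 4205 of that of Itga4, with the bases of the match in capitals.
miR-146a-5p: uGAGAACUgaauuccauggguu
Itgad site: gcatgggaacaAGTTCTCttca
Itga4 site: ctcaggaatctAGTTCTCAggg
A match is a description of these letters and does not show that the microRNA acts there.

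In resting WT BMDMs Itgb2 was the most abundant of the 10 transcripts, at 306 ± 21.9 CPM per kb of exon (CPM, counts per 1e+06 reads after scaling; SD, n = 3 here and below), followed by Itgam at 206 ± 5.15. Itgav (43.4 ± 6.58), Itga4 (32.1 ± 3.79), Itgb7 (27.9 ± 3.27) and Itga5 (19.9 ± 3.2) came next, then Itgax (11.2 ± 2.37) and Itgal (10.2 ± 1.83), Itgb3 (3.36 ± 0.938) and Itgad (0.056 ± 0.0121 CPM per kb). The libraries of Itga4 and Itgb7 overlapped, as did those of Itgax and Itgal, and all other neighbours in this order were separated. Itgad was at the edge of detection in WT, with 2 to 5 reads in each of the 6 WT libraries. The order was otherwise in KO: with LPS Itga4 stood at 82.1 ± 2.15, Itgax at 47.1 ± 8.12 and Itgal at 42.3 ± 4.59 CPM per kb, the latter pair overlapping, and Itgad at 2.54 ± 0.273 was above Itgb3 at 0.365 ± 0.0903. No reads were recounted, but those of Itgam can also be divided by all 5024 exon bases, with the other genes kept at their deposited lengths. Itgam was then at 48.6 ± 1.13 CPM per kb in resting WT, still second. In resting KO it was at 29.9 ± 3.65, below Itga4 and Itgav. This division holds only if its reads were counted over all exons, which was not tested. All levels here are from bulk cultures, in which fewer cells of a type and less RNA per cell cannot be told apart.

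**Figure D1:**
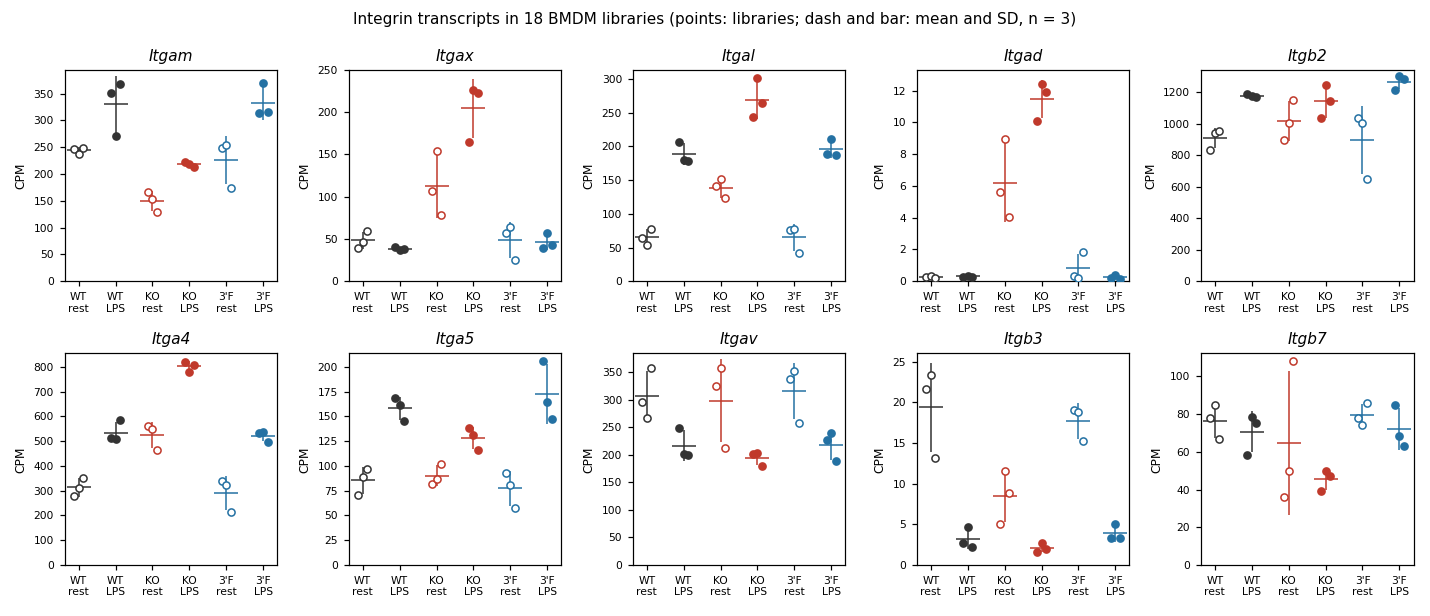
CPM (vertical axes, linear from 0) of each integrin in the 18 libraries, open points resting and filled points LPS, with the mean and SD of 3 libraries per group. Itgax and Itgad were highest in the KO groups, Itgal and Itga4 rose with LPS and stood highest in KO with LPS, and Itgb3 lay at 5.07 to 23.4 CPM at rest and 1.65 to 5.04 with LPS.

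The first question is how the integrins responded to LPS. In WT BMDMs, Itgal, Itga4, Itga5 and Itgam rose and Itgb3 and Itgav fell, so that 6 of the 10 integrins were called (adjusted p under 0.05 by edgeR's quasi-likelihood test) against 28.5% of all genes tested (4 higher, against 16.3%, and 2 lower, against 12.3%). Their median log2 fold change was 0.31, beside 0.02 over all genes tested. The libraries did not overlap between states for 7 of the 10, against 47.5% of genes.

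Itgal, the LFA-1 α chain, stood at 64.8, 53.6 and 77 CPM in resting WT replicates 1 to 3 and at 207, 180 and 179 with LPS. All 3 LPS cultures exceeded all 3 resting ones, a log2 fold change of 1.54 ± 0.19 (SE; adjusted p = 2.25e-05). Itga5, the fibronectin receptor α chain, was at 70.3, 88.8 and 97.2 CPM at rest and 168, 161 and 145 with LPS (0.89 ± 0.17, adjusted p = 0.00108), again without overlap. For Itga4, 279, 309 and 353 CPM at rest compared with 511, 509 and 584 with LPS (0.77 ± 0.15, adjusted p = 0.00112). Each of these α chains was higher with LPS in all 3 mice.

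Itgb3, the β chain of the vitronectin receptor, moved the other way and by more than any other of the 10 in WT. Its level was 21.6, 23.4 and 13.2 CPM at rest and 2.72, 4.64 and 2.27 with LPS, a log2 change of -2.59 ± 0.32 (adjusted p = 2.39e-05). Its partner Itgav changed far less, from 296, 266 and 357 CPM to 249, 202 and 199 (-0.50 ± 0.18, adjusted p = 0.0465). Itgam stood at 246, 238 and 249 CPM at rest and 351, 270 and 368 with LPS (0.43 ± 0.15, adjusted p = 0.0378). The calls of Itgam and Itgav were slight: Itgam lost it without any WT library other than LPS replicate 2 (adjusted p up to 0.158), and Itgav without resting replicate 1 or 3 or LPS replicate 2 or 3 (up to 0.19), whereas Itgal, Itga4, Itga5 and Itgb3 kept theirs without any 1 library.

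Itgb2, the shared β2 chain, was at 834, 941 and 952 CPM in resting WT and 1188, 1178 and 1172 with LPS, no overlap but not called (0.38 ± 0.15, adjusted p = 0.0766). Itgax (-0.32 ± 0.29), Itgad (0.24 ± 0.72) and Itgb7 (-0.11 ± 0.27) were not called either, with 95% intervals on the log2 scale of -0.89 to 0.24, -1.18 to 1.66 and -0.65 to 0.42.

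In KO the LPS response covered 7 integrins, against 26.9% of genes, of which 5 rose, against 14.3%, and 2 fell, against 12.6%. Libraries did not overlap for 8 of the 10, against 42.7% of genes. Itgal (0.96 ± 0.19, adjusted p = 0.0011), Itga4 (0.61 ± 0.15, adjusted p = 0.00539), Itgam (0.54 ± 0.15, adjusted p = 0.0116), Itga5 (0.51 ± 0.17, adjusted p = 0.0335) and Itgax rose, and Itgb3 (-1.99 ± 0.34, adjusted p = 0.000419) and Itgav (-0.62 ± 0.18, adjusted p = 0.0176) fell. Itgax, often used to mark dendritic cells, was at 107, 154 and 78.3 CPM in resting KO and at 164, 226 and 223 with LPS (0.85 ± 0.29, adjusted p = 0.0366). All 3 KO mice were higher with LPS, by 0.55 to 1.51 on the log2 scale, while the WT mice ranged from -0.62 to 0.05. The test of that difference between KO and WT gave 1.18 ± 0.41 for Itgax (unadjusted p = 0.0107), which failed the correction over all genes (adjusted p = 0.713).

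The calls of Itgal, Itga4 and Itgb3 in KO held without any 1 library. Itgax lost its call without resting replicate 1 or 3 or LPS replicate 2 or 3 (adjusted p up to 0.16), Itga5 without resting or LPS replicate 1 or 2 (up to 0.136), Itgav without resting replicate 1 or 2 or LPS replicate 3 (up to 0.0999) and Itgam without LPS replicate 2 (0.0668). Without resting KO replicate 3, 6 integrins were called. Itgb7 turned on single libraries: it was at 36.3, 49.8 and 108 CPM in resting KO, with replicate 3 far above the others, and at 39.3, 49.6 and 47.3 with LPS. Its change of -0.50 ± 0.28 (adjusted p = 0.195) became -0.79 and called without resting replicate 1 (adjusted p = 0.0291) and 0.08 without resting replicate 3 (adjusted p = 0.762).

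In 3'F 7 integrins were called with LPS, against 31.2% of genes, 5 higher, against 17.2%, and 2 lower, against 14%. Libraries did not overlap for 7 of the 10, against 45.2% of genes. Itgal (1.57 ± 0.19, adjusted p = 1.69e-05), Itga5 (1.15 ± 0.17, adjusted p = 0.000126), Itga4 (0.84 ± 0.15, adjusted p = 0.000535), Itgam (0.56 ± 0.15, adjusted p = 0.00922) and Itgb2 (0.50 ± 0.15, adjusted p = 0.0213) rose, and Itgb3 (-2.17 ± 0.32, adjusted p = 0.000112) and Itgav (-0.53 ± 0.18, adjusted p = 0.033) fell. Resting 3'F replicate 3 was the lowest of its group for both β2 and αM: Itgb2 was at 1040, 1007 and 647 CPM at rest and 1217, 1301 and 1282 with LPS, and Itgam at 248, 255 and 174 against 313, 370 and 315. Without that library 5 integrins were called, and the changes of Itgam and Itgb2 shrank to 0.36 (adjusted p = 0.0531) and 0.27 (adjusted p = 0.0796). Itgb2 also lost its call without LPS replicate 2 or 3, and Itgav without resting replicate 1 or 2 or LPS replicate 1 or 3 (adjusted p up to 0.121). In the tests of whether the LPS response differed from that of WT, no integrin was called in KO, where 0.00881% of all genes were, or in 3'F, where 0% were; at an unadjusted p under 0.05 there were 2 integrins for KO, Itgax and Itgal (-0.57 ± 0.26), among 560 genes, and 0 for 3'F among 203.

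The second question is how the integrins differed between genotypes. In resting BMDMs 6 of the 10 were called between KO and WT, against 9.4% of genes (4 higher, against 5.12%, and 2 lower, against 4.27%): Itgad, Itgax, Itgal and Itga4 were higher in KO, and Itgam and Itgb3 lower. That Itgad and its neighbours were among the genes that differ in KO was known when the 10 were listed, so this count is a description and no independent evidence. The libraries of KO and WT did not overlap for 6 of the 10, against 26.8% of genes.

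Itgad, the αD chain of a β2 integrin known from tissue macrophages, had 4, 4 and 2 reads in resting WT and 91, 117 and 36 in resting KO. In CPM these are 0.26, 0.30 and 0.19 against 5.63, 8.95 and 4.04, so all 3 KO cultures were far above all 3 WT cultures. From the summed counts the ratio was 24.8 (95% exact interval 13.3 to 52.4, counting error only), and the fit gave a log2 fold change of 4.56 ± 0.51 (adjusted p = 0.000142). With LPS the WT cultures had 0.28, 0.34 and 0.29 CPM and the KO cultures 10.1, 12.4 and 11.9. This ratio was 37.5 (21.7 to 70.9) and the log2 fold change 5.19 ± 0.48 (adjusted p = 1.9e-05). Both calls held without any 1 library, with log2 fold changes of 4.20 to 4.77 at rest and 5.12 to 5.28 with LPS. Even in KO with LPS the gene was low, at 11.4 ± 1.23 CPM. Itgad had enough reads to be tested only through its KO libraries. Its calls between KO and WT or 3'F are therefore a description and no independent evidence. The LPS response of Itgad within KO was not called (0.87 ± 0.35, adjusted p = 0.0763), but was without resting KO replicate 2 (1.23, adjusted p = 0.0347).

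Itgax, 3719 bases from Itgad, was at 39.2, 46.5 and 59.5 CPM in resting WT and 107, 154 and 78.3 in resting KO. With LPS the levels were 40.7, 36.4 and 38.6 against 164, 226 and 223. All KO cultures exceeded all WT cultures of their state, with log2 fold changes of 1.23 ± 0.29 (adjusted p = 0.0151) and 2.40 ± 0.30 (adjusted p = 0.000301). The call with LPS held without any 1 library, and that at rest was lost without WT replicate 1 or 2 or KO replicate 2 (adjusted p up to 0.0702). The identical words that Itgax shares with Itgad are a small part of both transcripts, and the level of Itgax in CPM was far above that of Itgad in every library. Reads of low mapping quality were dropped, which removes reads that fit both genes equally. The assignment of other reads was not tested.

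Itgal was at 64.8, 53.6 and 77 CPM in resting WT and 141, 151 and 123 in resting KO (1.09 ± 0.19, adjusted p = 0.00291), without overlap, and this held without any 1 library. With LPS the KO cultures, at 243, 301 and 265 CPM, still lay above the WT cultures at 207, 180 and 179, but the difference of 0.51 ± 0.18 was not called (adjusted p = 0.128). Itga4, whose 3′ UTR holds the 8mer, was at 279, 309 and 353 CPM in resting WT and 560, 549 and 463 in resting KO (0.74 ± 0.15, adjusted p = 0.00627). With LPS Itga4 was at 511, 509 and 584 against 819, 779 and 809 (0.58 ± 0.15, adjusted p = 0.033), a call that was lost without any library of the comparison other than WT replicate 3 (adjusted p up to 0.145).

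Itgam, the αM chain that marks myeloid cells, went the opposite way from its neighbours on the chromosome. It was at 246, 238 and 249 CPM in resting WT and 166, 154 and 130 in resting KO (-0.71 ± 0.15, adjusted p = 0.0082), with no overlap, and this held without any 1 library. With LPS the values were 351, 270 and 368 against 223, 219 and 214 (-0.59 ± 0.15, adjusted p = 0.0315), a call that was lost without any library other than WT replicate 2 (adjusted p up to 0.132). The deposited length of Itgam equals its 3′ end, and whether reads were counted there alone was not tested. Gm49368 was near the detection limit, at 1.13 ± 0.393 CPM in resting WT and 0.447 ± 0.29 in resting KO, and was not called (-1.20 ± 0.60, adjusted p = 0.237).

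Itgb3 was at 21.6, 23.4 and 13.2 CPM in resting WT and 5.07, 11.5 and 8.87 in resting KO, without overlap (-1.21 ± 0.30, adjusted p = 0.0183). Its call was lost without WT replicate 1 or 2 or KO replicate 1 (adjusted p up to 0.086). With LPS both genotypes were low, and the difference was -0.61 ± 0.36 (adjusted p = 0.417). Itgb2, Itga5 and Itgav were not called between KO and WT in either state, with log2 differences between -0.30 and 0.17. Itgb7 was not called at rest (-0.25 ± 0.27, adjusted p = 0.653) but was called without resting KO replicate 3 (-0.83, adjusted p = 0.0108), which brings the count to 7. With LPS Itgb7 was at 58.4, 78.4 and 75.1 CPM in WT and 39.3, 49.6 and 47.3 in KO, without overlap (-0.64 ± 0.28, adjusted p = 0.227).

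With LPS 4 of the 10 integrins were called between KO and WT, against 4.79% of genes, with Itgad, Itgax and Itga4 higher, against 1.89%, and Itgam lower, against 2.9%. Leaving out 1 library gave 2 or 3, and Itgad and Itgax were the 2 that held throughout. The libraries did not overlap for 7 of the 10, beside 33% of genes. As at rest, the 10 were listed with earlier KO results known, so these counts are a description and no independent evidence.

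**Figure D2:**
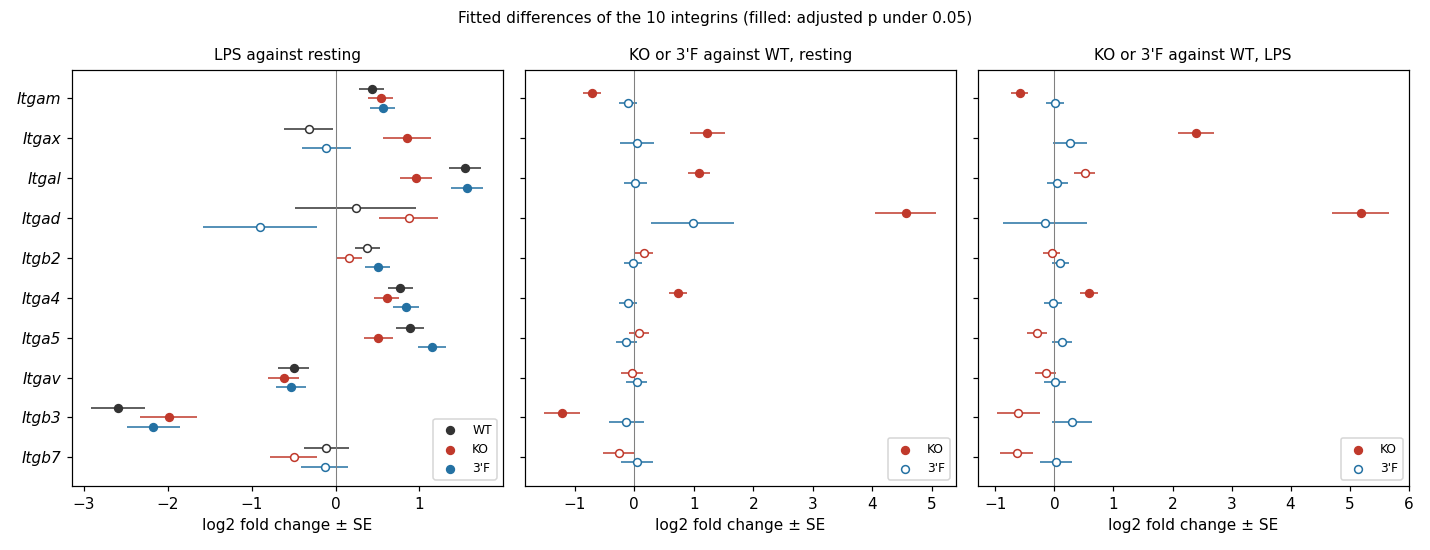
Log2 fold changes ± SE from the fit (horizontal axes) of the 10 integrins for LPS against resting in each genotype and for KO or 3'F against WT in each state, filled where the adjusted p was under 0.05. The 3'F points lie near 0 in both states, with Itgad at rest the farthest (0.98 ± 0.69), while Itgad in KO stands at 4.56 and 5.19.

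No integrin was called between 3'F and WT. Over all genes 0% were called at rest and 0.00881% with LPS, and at an unadjusted p under 0.05 there were 557 and 106 genes, none of them an integrin. Libraries of 3'F and WT were without overlap for 0 of the 10 at rest, against 7.12% of genes, and for 1, Itgb2, with LPS, against 7.87%. Itgax was at 57.6, 64.6 and 24.6 CPM in resting 3'F (0.05 ± 0.29 against WT, 95% interval -0.52 to 0.61) and at 39.1, 56.5 and 42.5 with LPS (0.26 ± 0.29, -0.31 to 0.83). Itgal differed by 0.02 ± 0.19 (-0.35 to 0.38) and 0.05 ± 0.18 (-0.31 to 0.41), Itga4 by -0.11 ± 0.15 (-0.39 to 0.18) and -0.03 ± 0.15 (-0.32 to 0.25), and Itgam by -0.11 ± 0.15 (-0.40 to 0.17) and 0.01 ± 0.15 (-0.27 to 0.30). These intervals leave room for differences, up to 0.83 for Itgax with LPS. Those of Itgad were wider, at -0.38 to 2.33 at rest and -1.56 to 1.24 with LPS. Without resting 3'F replicate 3 the number called at rest was also 0. Over 11 refits, with 1 library left out or another setting, the resting differences moved. They ran from -0.20 to 0.34 for Itgax, -0.13 to 0.24 for Itgal and -0.23 to 0.07 for Itga4. Those of Itgam ran from -0.21 to 0.04 and those of Itgad from 0.15 to 1.51.

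In 3'F Itgad was at 0.34 and 0.23 CPM in resting replicates 1 and 2 and 0.22, 0.38 and 0.13 with LPS, far below each KO library. Resting replicate 3 had 1.87 CPM, from 8 reads, the highest outside KO. The 3'F to WT ratio of summed Itgad counts was 1.78 (95% exact interval 0.78 to 4.32) at rest and 0.908 (0.369 to 2.2) with LPS. That library also had the highest dendritic cell marker sum (3.75 CPM for Flt3, Zbtb46, Cd209a, Xcr1 and Ccr7, against 0.263 to 0.953 in the other 17) and the highest neutrophil marker sum (66 CPM); their part in its Itgad value was not tested.

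KO was also compared with 3'F, a comparison that uses the same KO libraries as the one with WT. Its counts of integrins are likewise a description and no independent evidence. At rest 6 integrins were called, against 12.9% of genes, with 4 higher in KO, against 6.79%, and 2 lower, against 6.1%. With LPS 4 were called, against 3.88%, with 3 higher, against 1.51%, and 1 lower, against 2.37%. Libraries did not overlap for 6 of the 10 at rest, against 29.7% of genes, and for 8 with LPS, against 34.3%. At rest Itgad (3.58 ± 0.49, adjusted p = 0.000696), Itgax (1.18 ± 0.29, adjusted p = 0.0173), Itgal (1.07 ± 0.19, adjusted p = 0.00421) and Itga4 (0.85 ± 0.15, adjusted p = 0.00421) were higher in KO, and Itgam (-0.59 ± 0.15, adjusted p = 0.0185) and Itgb3 (-1.09 ± 0.30, adjusted p = 0.0288) lower. With LPS the log2 fold changes were 5.35 ± 0.50 for Itgad (adjusted p = 2e-05), 2.15 ± 0.30 for Itgax (adjusted p = 0.000906), 0.62 ± 0.15 for Itga4 (adjusted p = 0.0284) and -0.60 ± 0.15 for Itgam (adjusted p = 0.0305). The counting ratio of Itgad was 13.9 (8.64 to 23.9) at rest, or 22.4 (12 to 47.2) without 3'F replicate 3, and 41.2 (22.8 to 83.2) with LPS.

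Without resting KO replicate 3 the count at rest was 5, and without resting 3'F replicate 3 it was 6. Over all genes tested 1464 were called at rest with all libraries, 930 without that KO library and 735 without that 3'F library. At rest Itgal, Itgad and Itga4 held without any 1 library, Itgam lost its call without KO replicate 3 or 3'F replicate 2 (adjusted p up to 0.058), Itgax without KO replicate 2 (0.0597) and Itgb3 without KO replicate 1 or 3 or 3'F replicate 1 or 2 (up to 0.096). With LPS, leaving out any 1 library left Itgad and Itgax called and lost Itgam and Itga4 (adjusted p 0.0728 to 0.137 and 0.0617 to 0.122). Itgb7, not called at rest (-0.30 ± 0.28, adjusted p = 0.483), was at -0.88 without KO replicate 3 (adjusted p = 0.00946).

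The make-up of the α chains that can pair with β2 differed by genotype. Itgad and its neighbours were listed with their difference in KO known, so this is a description and no independent evidence. By CPM per kb Itgam made up 90.6 ± 1.35% of the summed α transcripts in resting WT, 90 ± 1.77% in 3'F and 72.2 ± 3.73% in KO, and with LPS 87.7 ± 1.6%, 87.2 ± 0.0611% and 66.8 ± 3.36%. Itgax took 4.89 ± 0.913% in resting WT and 14.7 ± 3.47% in KO, and 2.84 ± 0.309% and 17 ± 2.44% with LPS. Itgal took 4.47 ± 0.641% and 12.4 ± 0.657% at rest and 9.46 ± 1.29% and 15.3 ± 1.09% with LPS, and Itgad 0.77 ± 0.236% and 0.917 ± 0.0684% in KO. In every library of KO the share of Itgam was below that of every library of WT and 3'F. With the same Itgam reads divided by all 5024 exon bases, its share would be 69.6 ± 3.33% in resting WT and 38.2 ± 4.15% in resting KO. That holds only if its reads were counted over all exons, which was not tested. The percentages thus depend on the length used. The order of the libraries by share of Itgam cannot, since a length scales Itgam alike in every library, so that order is no check. The summed α level was 0.38 to 0.88 of the level of Itgb2 in the 18 libraries, or 0.165 to 0.359 with all exon bases of Itgam.

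**Figure D3:**
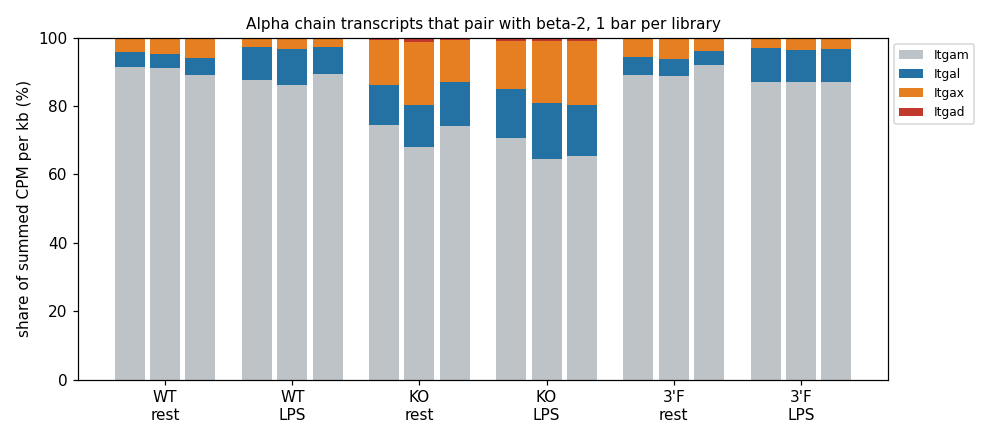
Share of each β2-pairing α chain in the summed CPM per kb (vertical axis, %), with 1 bar per library in the order replicate 1 to 3. Itgam is between 64.4 and 74.5% in the 6 KO libraries and between 86.1 and 92% in the 12 others.

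The genes around the cluster were read in the genotype comparisons. Within 1 Mb of Itgam, Itgax and Itgad (chr7:127062640-129223816) 48 genes other than integrins were tested, of which 6 were higher and 0 lower in resting KO than in WT, 12.5% called, against 10.9% of chromosome 7 and 9.27% of all other chromosomes. With LPS 2 of the 48 were lower and 0 higher in KO, 4.17%, against 6.55% and 4.65%. Between KO and 3'F, which uses the same KO libraries, 9 of the 48 were higher and 0 lower in KO at rest, 18.8%, against 12.6% of chromosome 7 and 12.9% of all other chromosomes, and with LPS 0 were higher and 2 lower, 4.17%, against 5.75% and 3.73%. Between 3'F and WT none of the 48 was called by edgeR in either state. By size of change the genes called between KO and WT were Cox6a2 (1.94 ± 0.52, adjusted p = 0.0273), Bag3 (1.13 ± 0.19, adjusted p = 0.00271), Armc5 (0.64 ± 0.19, adjusted p = 0.0465) and Inpp5f (0.64 ± 0.12, adjusted p = 0.00505) at rest, and 9130023H24Rik (-0.68 ± 0.15, adjusted p = 0.0157) and AI467606 (-0.46 ± 0.10, adjusted p = 0.0194) with LPS. Cox6a2, a cytochrome c oxidase subunit, lies inside the annotated span of Itgad on the opposite strand, and 70 of its 680 exon bases are also exon of Itgad. It was low in resting BMDMs, at 1.66 ± 0.653 CPM in KO and 0.422 ± 0.12 in WT, and counting was by strand. On its own strand Itgad shares 4180 of its 4510 exon bases with no other gene. What overlap on the rest does to its counts was not tested. Between KO and WT Itgad differed by 4.56 at rest and 5.19 with LPS, and Itgax by 1.23 and 2.40. The called genes of the window that are not integrins differed by at most 1.94, for Cox6a2 at rest, which was above Itgax there. Between KO and 3'F at rest Cox6a2 differed by 2.48 ± 0.56, also above Itgax at 1.18.

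**Figure D4:**
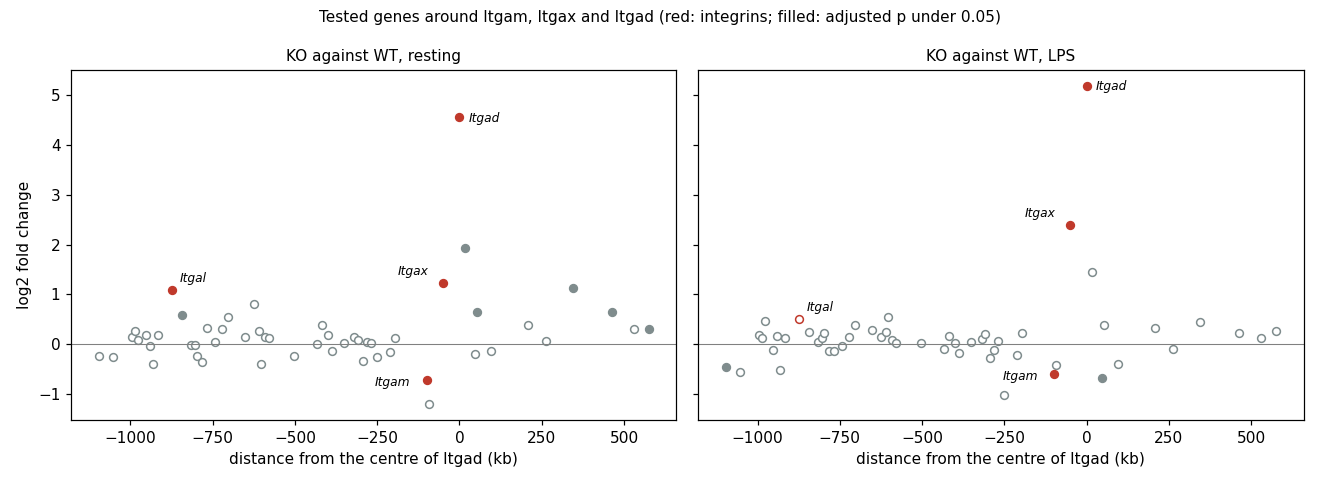
Log2 fold change of KO against WT (vertical axis) of the 53 tested genes within 1 Mb of the cluster by distance from the centre of Itgad (horizontal axis, kb), integrins in red and filled where the adjusted p was under 0.05. Itgad is the highest point in both states, Itgax is the next highest with LPS and lies below Cox6a2 at rest, and Itgam lies below 0.

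The genes with the pattern most like each integrin were ranked by Pearson's r of log2 CPM over the 18 libraries, which share genotype and LPS, so that r mixes both; it is given without a test. Itgad was closest to Plekha7 (r = 0.97) and Gdpd3 (0.96), both on chromosome 7, and Gm14085 (0.94). Itgax was closest to Map3k5 (0.92), Chp1 (0.91) and Ankrd44 (0.90), and Itgal to Slc11a1, Filip1l and Nfkb2 (0.98 each). Itgam was closest to Lpl (0.91), Itgb2 to Myh9 (0.96), Itga4 to Arid5b (0.97), Itga5 to Zbtb18 (0.97), Itgav to Tgfbr1 (0.95), Itgb3 to Slc25a13 (0.97) and Itgb7 to Spp1 (0.89).

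Other genes of the pathway are given by list, beside 16.3% of all genes higher and 12.3% lower with LPS in WT, 5.12% higher and 4.27% lower in resting KO than in WT, and 1.89% and 2.9% with LPS. Of 16 other integrin chains 8 were tested. With LPS in WT 3 rose and 2 fell, the largest changes being Itgb8 (3.62 ± 0.53, adjusted p = 0.000123), Itgb5 (-1.81 ± 0.23, adjusted p = 2.96e-05), Itga6 (-1.23 ± 0.17, adjusted p = 8.26e-05) and Itga1 (1.20 ± 0.31, adjusted p = 0.00814). Itgb5 and Itgb8, like Itgb3, pair with αv, so the αv partners moved in both directions. Itga6, a laminin receptor chain, was the only one of the 8 called between KO and WT, lower in KO at rest (-0.61 ± 0.17, adjusted p = 0.0367) and with LPS (-0.94 ± 0.17, adjusted p = 0.00581).

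Of 22 integrin ligands 14 were tested. C3, which gives rise to the complement fragment bound by Itgam and Itgax products, rose with LPS in WT (3.07 ± 0.50, adjusted p = 0.000285), as did Vcam1 (2.83 ± 0.51, adjusted p = 0.000587), the ligand of α4 integrins, and Icam1 (2.32 ± 0.16, adjusted p = 6.11e-08), the ligand of LFA-1 and Mac-1; none fell. In resting KO Icam1 (1.01 ± 0.15, adjusted p = 0.00156) and C3 (2.73 ± 0.49, adjusted p = 0.00359; 153 ± 144 CPM in KO against 23 ± 7.59, uneven among the KO libraries) were higher than in WT and Mfge8, a bridging ligand of αv integrins, lower (-1.03 ± 0.25, adjusted p = 0.0158). With LPS 1 of the 14 was higher in KO, Icam1 (0.58 ± 0.15, adjusted p = 0.0369), and 1 lower, Mfge8 (-0.90 ± 0.24, adjusted p = 0.0461). Icam1 was thus higher in KO together with its receptor chain Itgal at rest, while Itgam, the other receptor chain, was lower.

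Among 16 tested genes that activate integrins, 4 rose and 2 fell with LPS in WT, led by Fyb (1.11 ± 0.15, adjusted p = 6.1e-05), Rap1b (0.84 ± 0.14, adjusted p = 0.000421), Dock2 (-0.70 ± 0.11, adjusted p = 0.00029) and Fermt3 (0.67 ± 0.12, adjusted p = 0.000424), whose product kindlin-3 binds β tails. None of the 16 was called between KO and WT in either state. Of 18 kinases and adaptors that signal from integrins, 8 rose and 1 fell with LPS in WT, among them Src (3.17 ± 0.32, adjusted p = 3.33e-06), Fgr (1.99 ± 0.27, adjusted p = 6.67e-05) and Lcp2 (1.44 ± 0.17, adjusted p = 1.78e-05). In resting KO 5 of the 18 were higher than in WT and 0 lower, and with LPS 1 was higher, Lcp2 (0.79 ± 0.17, adjusted p = 0.0138), and 0 lower. Those higher at rest included Fgr (1.57 ± 0.27, adjusted p = 0.003), Lcp2 (0.81 ± 0.17, adjusted p = 0.00854) and Lyn (0.64 ± 0.18, adjusted p = 0.0379).

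Since several integrins mark cell types, markers were read beside them. The sum of 5 macrophage markers (Adgre1, Csf1r, Cd68, Mertk and Fcgr1) was 4293 to 4587 CPM in resting WT, 5975 to 6284 in resting KO and 3790 to 4760 in resting 3'F, and 7110 to 8883, 9830 to 11077 and 7897 to 8853 with LPS, all 5 above 0 in each group. The sum of the monocyte markers Ly6c2 and Ccr2 was 21.3 to 23.4 CPM in resting WT and 39.4 to 56.8 in resting KO, and 31.3 to 65.6 and 85.4 to 134 with LPS. Thus macrophage and monocyte markers were higher in KO in both states, as were Itgax and Itgad, and their part in the integrin differences was not tested. The 5 dendritic cell markers summed to 0.561 to 0.742 CPM in resting KO and 0.29 to 0.499 in KO with LPS, against 0.263 to 0.452 in resting WT and 0.341 to 0.953 in WT with LPS. At rest these low sums were higher in KO without overlap, as was Itgax, and with LPS they overlapped; their part in the Itgax difference was not tested.

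Neutrophil markers (7 genes) summed to 13.4 to 66 CPM over the 18 libraries, with resting KO replicate 3 at 52.4 and Ly6g at 0 in all resting groups. T cell, B cell, NK cell and mast cell markers summed to under 1 CPM in each library. Osteoclast markers (Ctsk, Acp5, Calcr and Ocstamp) were at 478 CPM in resting KO replicate 3, the library with the high Itgb7, against 177 to 290 in the other 17, with Calcr at 0 there; their part in that value was not tested. The megakaryocyte list summed to 339 to 493 CPM in resting WT, 108 to 336 in resting KO and 348 to 525 in resting 3'F. With LPS the sums were 421 to 591, 295 to 381 and 376 to 421. They came mainly from Pf4 and Itga2b, since Gp9 and Gp1bb were at or near 0. These sums were lower in KO than in WT without overlap, as was Itgb3 at rest, and their part in the Itgb3 difference was not tested. Stromal markers summed to 0.394 to 4.05 CPM.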

How the data were processed

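The authors deposited a table of raw counts, whole numbers of reads per protein-coding gene, with an exon length in bases per gene. Per the methods, ribosomal RNA was depleted, libraries were directional, and reads were trimmed with cutadapt 1.8.3, aligned to mm10 with HISAT2 2.1.0 and counted by strand with featureCounts 1.5.3 on Gencode M15; reads of low mapping quality were dropped, which removes reads that fit more than 1 place. Gene positions come from Gencode M21 on the same build.

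In R 4.3.3 with edgeR 4.0.16, filterByExpr kept 11357 genes; TMM factors were 0.812 to 1.15, and 1 quasi-likelihood fit held the 18 libraries with a coefficient per group (biological coefficient of variation 0.184). P values were two-sided and Benjamini-Hochberg adjusted over all genes tested in each of 11 comparisons; a gene was called under 0.05. The SE is the log2 fold change over the square root of F. Intervals of log2 fold changes are nominal at 95%, taken from a normal distribution, and are thus somewhat narrower than the F test implies. CPM means carry the SD of 3 libraries. Ratios of Itgad counts have exact conditional intervals, which speak to counting error alone, as these reads carry no molecular identifiers. The fit was checked on simulated counts. With 3 libraries against 3 an exact permutation test cannot go below p = 0.1.

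The rule named the 10 integrins in every comparison, up to 4 called genes of each list and of the window on chromosome 7, and the 3 genes most like each integrin. Some genes of the lists that meet this rule are not reported here. The integrins and lists were chosen with earlier results of these data known. Both cultures of a mouse share a letter in the column names, so same-numbered resting and LPS libraries of a genotype pair. Their deviations from group means correlated at 0.0283 to 0.318. Same-numbered libraries of different genotypes correlated at -0.287 to 0.396, so these values do not set the pairs apart. The pairing rests on the letters. Replicate numbers do not pair mice across genotypes. Alternatives were DESeq2 1.42.0, its size factors (RLE), no filter, the compared groups alone, the replicate block, the animal as block, and each library left out. Protein measurements of the study were not analysed here.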

Additional observations from a re-analysis of the deposited data

How the results depend on the processing

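Of the 110 pairs of integrin and comparison, 40 were called and 11 more were called under at least 1 alternative. No call reversed. RLE scaling, DESeq2 and the replicate block kept the number of integrins called in each comparison within 1.5 times that reported. With the replicate block, and with the animal as block for the LPS responses, the numbers were the same as reported: 6 in WT, 7 in KO and 7 in 3'F for LPS, and 6 and 4 for KO against WT at rest and with LPS. Leaving out 1 library gave 4 to 5, 4 to 6 and 5 to 6 for LPS in WT, KO and 3'F, 4 to 7 and 2 to 3 for KO against WT at rest and with LPS, 4 to 6 and 2 to 2 for KO against 3'F, and 0 to 0 for 3'F against WT and the interactions. The fit of the compared groups alone called 0 integrins for KO against 3'F at rest, where 10 genes in all were called, and 8 with LPS, where 1665 were. At rest Itgad then had a log2 fold change of 3.46 (adjusted p = 0.12), and the cause was not tested. Without the filter on low counts 7 calls near the threshold were lost and none gained. Itgb7, not called in the report, changed sign without 1 library: its log2 fold change ran from -0.79 to 0.08 for LPS in KO and from -0.83 to 0.04 for KO against WT at rest, with resting KO replicates 1 and 3 at the ends of both ranges. The 59 pairs never called changed sign in 68 of 796 refits. Depth limits Itgad, with 1 to 8 reads in each WT and 3'F library, and Gm49368.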

Other observations

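Of 11 tested genes that restrain integrins, 3 rose and 1 fell with LPS in WT. Over all genes tested 16.3% were called higher and 12.3% lower in that comparison. Tns1, which links integrins to actin, fell (-2.37 ± 0.20, adjusted p = 4.26e-07 by edgeR), and those that rose included Rap1gap2 (1.93 ± 0.46, adjusted p = 0.00516) and Flna (0.52 ± 0.18, adjusted p = 0.0345). In KO 2 rose and 2 fell, beside 14.3% and 12.6% of all genes, and in 3'F 4 rose and 1 fell, beside 17.2% and 14%. Between KO and WT 1 of the 11 was called at rest, Dok2 (0.34 ± 0.10, adjusted p just under the threshold), and 0 with LPS. Over all genes 9.4% and 4.79% were called there.

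Of 17 tested genes of the adhesion complex, the proteins that join integrins to the cytoskeleton, 4 rose and 1 fell with LPS in WT, beside 28.5% of all genes called in either direction. Nedd9 fell (-1.35 ± 0.20, adjusted p = 0.000134), and Zyx (0.83 ± 0.23, adjusted p = 0.0122), Lims1 (0.71 ± 0.14, adjusted p = 0.00148) and Arpc2 (0.39 ± 0.11, adjusted p = 0.0126) rose. In KO 3 rose and 4 fell, beside 14.3% and 12.6% of all genes, and in 3'F 5 rose and 2 fell, beside 17.2% and 14%. Between KO and WT 0 of the 17 were called in either state by edgeR, beside 9.4% of all genes at rest and 4.79% with LPS.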
